A study of Mus musculus with 12 samples.

Results

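The genes described here encode the potassium, sodium, calcium and HCN channels of mouse cortex, pores and auxiliary subunits together. They were taken by symbol from the deposited gene table, with no measured value used, and they are 136 of its 36047 genes. The channels were compared between 4 groups of 3 libraries, WT and Gde2KO cortex at 4 months and WT and Gde2KO cortex at 19 months, each from polyA RNA. The Gde2KO mice lack GDE2, the product of Gdpd5, a surface enzyme that cuts GPI anchors, and the deletion is constitutive, so it is present in every cell type and throughout development. The older age was sequenced to look for splicing errors beside loss of the RNA-binding protein TDP-43, and the younger to look for pathways that precede it. The ages are different animals, and age cannot be told apart from library batch.

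Voltage-gated sodium channels carry the upstroke of the action potential, and voltage-gated, calcium-activated and tandem-pore potassium channels set its repolarization, the firing rate and the resting potential. Voltage-gated calcium channels couple spikes to transmitter release and to signaling in dendrites, and HCN channels open on hyperpolarization and pass the mixed cation current that shapes rhythmic firing. Each pore is assembled with auxiliary subunits, which control its gating and its delivery to the membrane. By symbol, 40 of the 136 genes encode voltage-gated potassium pores, 15 potassium auxiliary subunits, 8 calcium- or sodium-activated potassium pores, 15 inward rectifiers, 14 tandem-pore potassium channels, 10 sodium pores and 4 sodium beta subunits. A further 10 encode calcium pores, 4 calcium beta subunits, 4 alpha2delta subunits, 8 members of the Cacng family and 4 HCN channels.

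Values are the authors' normalized counts summed over the transcripts of a gene, and levels are compared between genes only in the authors' normalized TPM, which is scaled for transcript length. The libraries held an estimated 46432108 to 59726331 reads at 4 months and 3707941 to 44602117 at 19 months. WT library A (6734480) and Gde2KO library A (3707940) of 19 months were the shallow ones, and in the latter 1 read was worth 8.29 normalized counts. The replicates measure the spread between animals of one group, and their number, 3, limits the precision of every value below.

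Gdpd5 checked the genotype labels. It stood at 684, 702 and 1199 normalized counts in 4-month WT and at 417, 585 and 403 in 4-month Gde2KO, and at 1065, 1129 and 952 against 441, 456 and 560 at 19 months. The genotypes did not overlap at either age. The log2 fold change was −1.11 (SE 0.12, limma adjusted p = 0.0111) at 19 months and −0.85 (SE 0.25, limma adjusted p = 0.463) at 4 months.

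Among the 4-month libraries, WT replicates 1 and 2 stood apart from the other 4, and this bears on every 4-month value. Of 14 hippocampus markers 12 were higher in both of them than in any other 4-month library, with a summed level of 39356 to 43989 normalized counts against 10075 to 12762, and all 12 striatum markers were lower, with 6444 to 8337 against 36468 to 97081. The summed cortex markers were 62233 to 84687 in these libraries and 45895 to 64723 in the others, and no marker of the 3 lists was at 0 in any library. At 19 months the hippocampus sum was 7667 to 7945 in WT and 9354 to 11111 in Gde2KO, and the striatum sum 9331 to 12153 and 11358 to 25677. The part these markers play in the channel results was not tested, and in bulk tissue fewer cells of a type and less RNA per cell cannot be told apart.

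All 136 channel genes were detected in at least 1 library. A mean of 1 TPM or more over the 12 libraries was reached by 111 of them, 10 TPM or more by 79, and 50 TPM or more by 33. The 6 lowest, below 0.1 TPM, were Kcne1, Scn11a, Scn4a, Kcnk18, Kcnk16 and Kcna7, several of which are known from muscle, heart or sensory neurons.

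Abundant auxiliary transcripts included Kcnab2 (mean 314 TPM over the 12 libraries), a cytoplasmic beta subunit of the Shaker potassium pores, and Cacnb3 (189 TPM), a cytoplasmic calcium channel subunit. Abundant pores included Kcnh3 (114 TPM), a forebrain ether-a-go-go relative, and Kcnj4 (101 TPM), a strong inward rectifier. Kcnc1, which permits fast spiking in interneurons, had a mean of 100.3 TPM, and Kcnj9, a subunit of the G-protein-gated rectifier, one of 98.6 TPM.

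The leading sodium pore was Scn8a at 83.6 TPM, the pore concentrated at the axon initial segment and nodes, ahead of Scn2a at 73.4 and Scn1a at 41.6 TPM. Cacna1a, the P/Q-type pore of presynaptic terminals, led the calcium pores at 85.7 TPM, and the T-type pores Cacna1g, Cacna1h and Cacna1i had means of 64.5, 40.2 and 29.9 TPM. Kcnk1 (85.3 TPM) led the tandem-pore channels, the sodium-activated Kcnt1 (93.1 TPM) the activated potassium pores, Cacng7 (89.0 TPM) the Cacng family, Cacna2d1 (66.1 TPM) the alpha2delta subunits and Hcn2 (87.3 TPM) the HCN channels. Every gene of the sodium beta, calcium beta, alpha2delta and HCN classes reached 1 TPM.

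**Figure D1:**
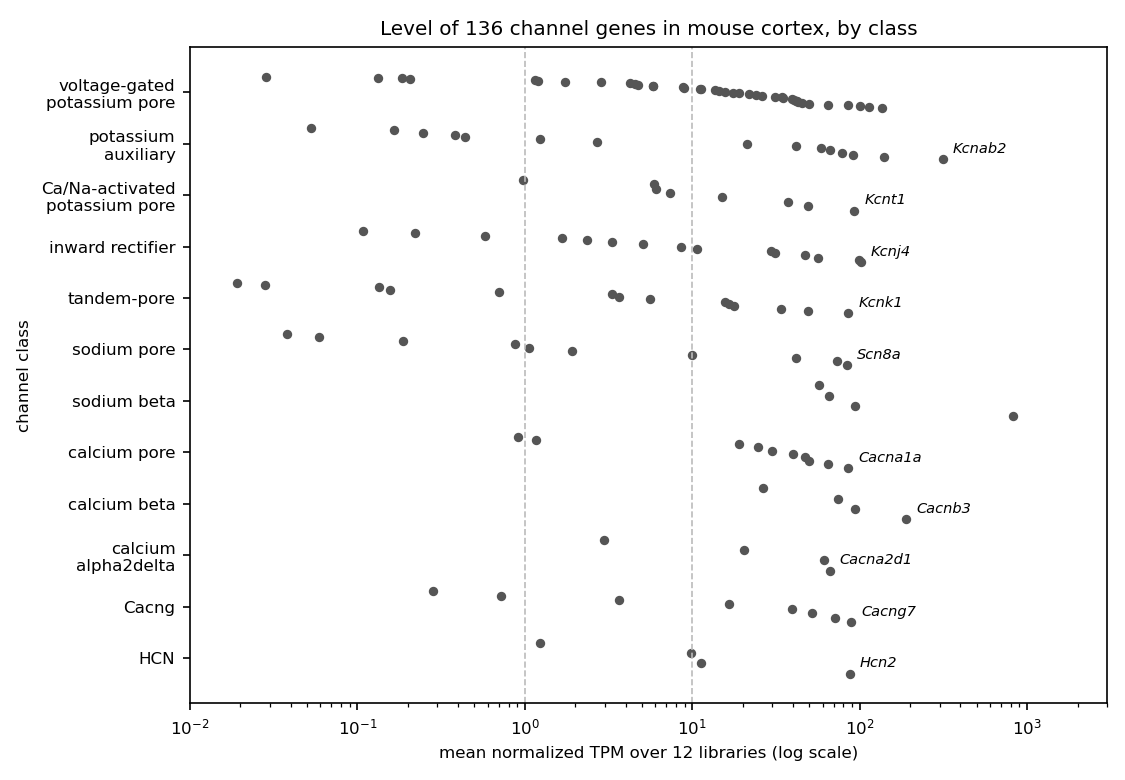
Mean normalized TPM over the 12 libraries (log scale) of the 136 channel genes, 1 point per gene, in rows by channel class, with the highest gene named in 10 of the classes and dashed lines at 1 and 10 TPM. Of these genes 111 lay at 1 TPM or more and 79 at 10 TPM or more.

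Levels were also summed over each class. The alpha2delta transcripts summed to 166 ± 7.77 TPM in WT and 173 ± 11.7 in Gde2KO at 4 months, and to 129 ± 4.08 and 132 ± 1.98 at 19 months (SD, n = 3 each). The HCN transcripts summed to 101 ± 19.0, 111 ± 9.70, 117 ± 3.35 and 110 ± 2.99 TPM in the same order. The voltage-gated potassium pores summed to 1068 ± 105, 1061 ± 73.9, 1196 ± 10.9 and 1184 ± 21.3 TPM. These sums are descriptions and were not tested.

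The channels followed the 4-month libraries that stood apart. Of 126 channel genes tested at 4 months, 83 had WT replicates 1 and 2 both outside the range of the other 4 libraries, where 34.9% of all genes tested did. In 60 of them the pair lay below the others (22.1% of all genes) and in 23 above (12.8%). The genes below included 16 of 37 voltage-gated potassium pores, 8 of 15 inward rectifiers, 6 of 10 tandem-pore channels, 6 of 8 Cacng genes and 3 of 4 sodium beta subunits, and the genes above included 5 of 10 calcium pores and 7 of 37 voltage-gated potassium pores.

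A wide gap was that of Scn4b, the beta subunit linked to resurgent sodium current and abundant in striatum, which stood at 546 and 716 normalized counts in WT replicates 1 and 2, at 11473 in WT replicate 3 and at 8558, 15121 and 6001 in the Gde2KO libraries. The mean of the other 4 libraries was 16.3-fold that of the pair. At 19 months Scn4b lay between 3826 and 6018 in all 6 libraries.

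Kcnh4, an ether-a-go-go relative expressed in striatum and cortex, stood at 111 and 150 in the pair, 1025 in WT replicate 3 and 734, 1015 and 703 in Gde2KO (6.66-fold). Kcns1, a silent subunit that modifies other potassium pores, read 146, 210 and 766 in WT and 793, 567 and 748 in Gde2KO. Kcnab3, a potassium beta subunit, read 717, 822 and 2567 against 2820, 2116 and 3805. In each of these genes WT replicate 3 lay with the Gde2KO libraries.

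The opposite order held for Scn3b, a sodium beta subunit, with 7713, 7440 and 3062 normalized counts in WT and 3714, 3043, 3942 in Gde2KO. Cacna1h, a T-type calcium pore, read 6212, 4765 and 2774 in WT and 2168, 2968 and 1610 in Gde2KO. Kcng2, a silent potassium subunit chosen after its values were seen, read 809.5, 879 and 171 against 279, 119 and 221.

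**Figure D2:**
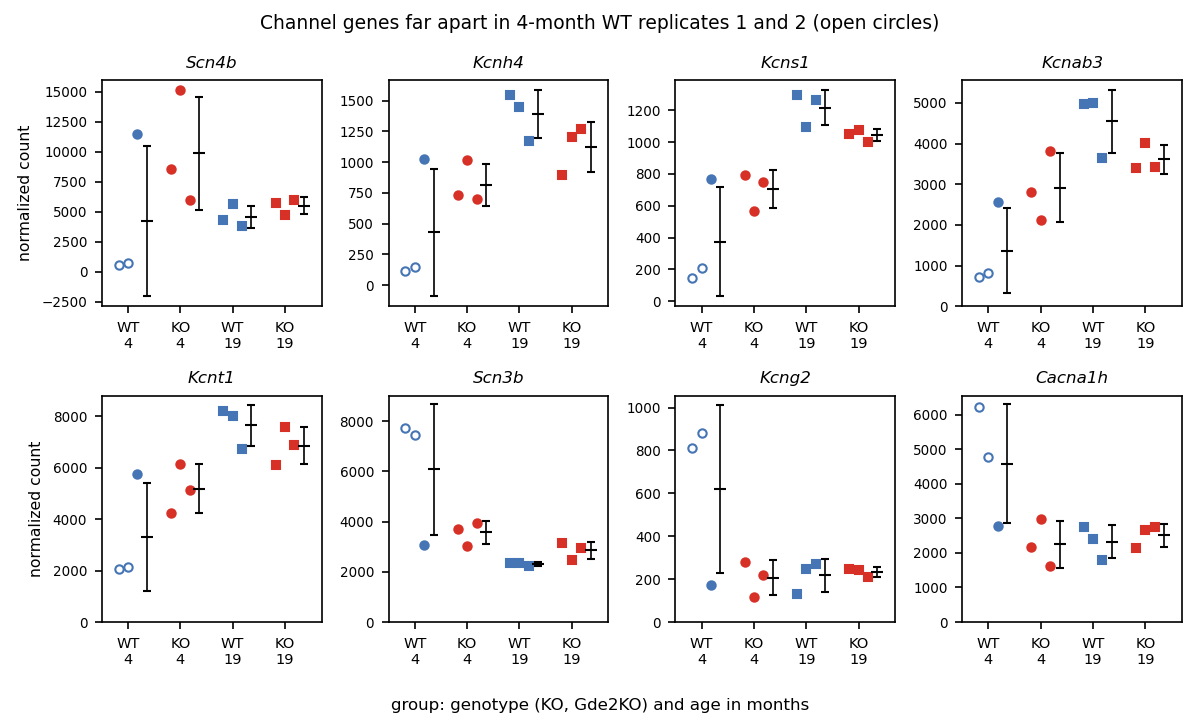
Normalized counts in each library for 8 channel genes that were far apart in WT replicates 1 and 2 of 4 months (open circles), by genotype and age in months, with bars for the group mean and SD (n = 3). Scn4b lies at 546 and 716 in these libraries and at 3826 or more in the other 10, and WT replicate 3 lies with the Gde2KO libraries in all 8 panels.

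The first comparison asked whether channel transcripts differed in Gde2KO cortex at 4 months. None of the 126 channel genes tested was called, a call being a limma adjusted p under 0.1 over all genes with a natural-log fold change of more than 0.5 in either direction, and 0.126% of all genes tested were called. At an unadjusted p under 0.05 there were 22 channel genes, 16 of them higher in Gde2KO, where 10.6% of all genes passed and 7.93% were higher. The median log2 fold change of the channel genes was 0.20 and that of all genes 0.11, a shift of all genes that fell to 0.0066 after TMM scaling. The channel median was −0.029, and that of all genes 0.11, without WT replicates 1 and 2. WT and Gde2KO libraries did not overlap in 13 of the 126, where 15.4% of all genes did not, with 7 higher (11.1% of all genes) and 6 lower (4.26%) in Gde2KO.

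The smallest unadjusted p belonged to Kcnj6, a subunit of the G-protein-gated inward rectifier, with 2243, 1901 and 1127 normalized counts in WT and 925, 904 and 676 in Gde2KO (log2 fold change −1.03, SE 0.26, limma adjusted p = 0.463). Every WT library lay above every Gde2KO library, and the WT libraries that stood apart were the highest. Kcnn2, a small-conductance calcium-activated potassium pore, followed the same order with 2334, 1906 and 1271 against 984, 1026 and 1072.

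Kcnv1, a silent potassium subunit of neocortex, lay the other way, with 2016, 1985 and 3240 in WT and 4217, 3480 and 4882 in Gde2KO (0.82, limma adjusted p = 0.463). Kcnj4 read 1829, 2171 and 4142 against 4794, 4605 and 5608. Cacnb4, a calcium beta subunit, read 4464, 6123 and 10528 against 10781, 11226 and 11305. In these 3 genes the groups did not overlap, and WT replicate 3 lay nearer to the mean of the Gde2KO libraries than to that of the other WT libraries.

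These 4-month values rested on the WT libraries chosen. Without WT replicate 3, 36 of 124 channel genes were called (8.03% of all genes), 29 higher (5.63%) and 7 lower in Gde2KO. Without WT replicates 1 and 2, which leaves 1 WT library assumed to vary like the others, 0 were called by limma, 2 had an unadjusted p under 0.05, and the log2 fold changes became −0.45 for Kcnj6, 0.36 for Kcnv1, −0.31 for Kcnn2 and −0.32 for Scn4b.

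At 19 months none of 127 channel genes tested was called, where 0.0969% of all genes were, and 11 had an unadjusted p under 0.05 (6.91% of all genes). The channel median was −0.018 and that of all genes −0.021. WT and Gde2KO libraries did not overlap in 16 channel genes (14.2% of all genes), 4 higher (5.85%) and 12 lower (8.32%) in Gde2KO.

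The smallest p at 19 months was that of Scn2b, a sodium beta subunit that joins its pore by a disulfide bond, with 8578, 9323 and 8449 normalized counts in WT and 7631, 6964 and 7217 in Gde2KO (log2 fold change −0.27, SE 0.057, limma adjusted p = 0.351). Scn3b read 2343, 2357 and 2224 in WT and 3135, 2461 and 2950 in Gde2KO (0.30, limma adjusted p = 0.614). Kcnn3, a small-conductance calcium-activated potassium pore, read 405, 432 and 441 against 647, 460 and 622 (0.42, limma adjusted p = 0.645). The Gde2KO libraries lay on one side of the WT libraries in each, with differences of less than the size a call asked for.

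Other transcripts that carry cortical excitability were close in the 19-month genotypes. Cacna1a read 8009, 7527 and 7556 in WT and 6519, 7193 and 7064 in Gde2KO (−0.15, limma adjusted p = 0.669), without overlap. Kcnma1, the large-conductance calcium-activated potassium pore, read 9542, 9079 and 10965 against 9713, 9001 and 9492. The genotypes overlapped for Kcnma1.

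Of the 125 channel genes tested over both ages, none had WT and Gde2KO libraries apart at both, in the same direction (0.603% of all genes) or in opposite directions (1.57%). Kcna10, with too few counts to be tested at 4 months, was apart at both ages in opposite directions. Averaged over both ages, 0 of 125 channel genes were called by limma (0.0854% of all genes), with 16 at an unadjusted p under 0.05 (7.76%). The interaction of genotype and age called 0 of 125 at a limma adjusted p under 0.1 (0.048%), with 35 at an unadjusted p under 0.05 against 12.9% of all genes, a count that fell to 4 without WT replicates 1 and 2 of 4 months. Sample weights in limma gave 38 channel genes for genotype at 4 months (12.7% of all genes), 74 for the interaction (34.5%) and 10 for the average over ages (4.14%), and leaving out WT replicate 3 of 4 months gave 10 for the average (2.6%).

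**Figure D3:**
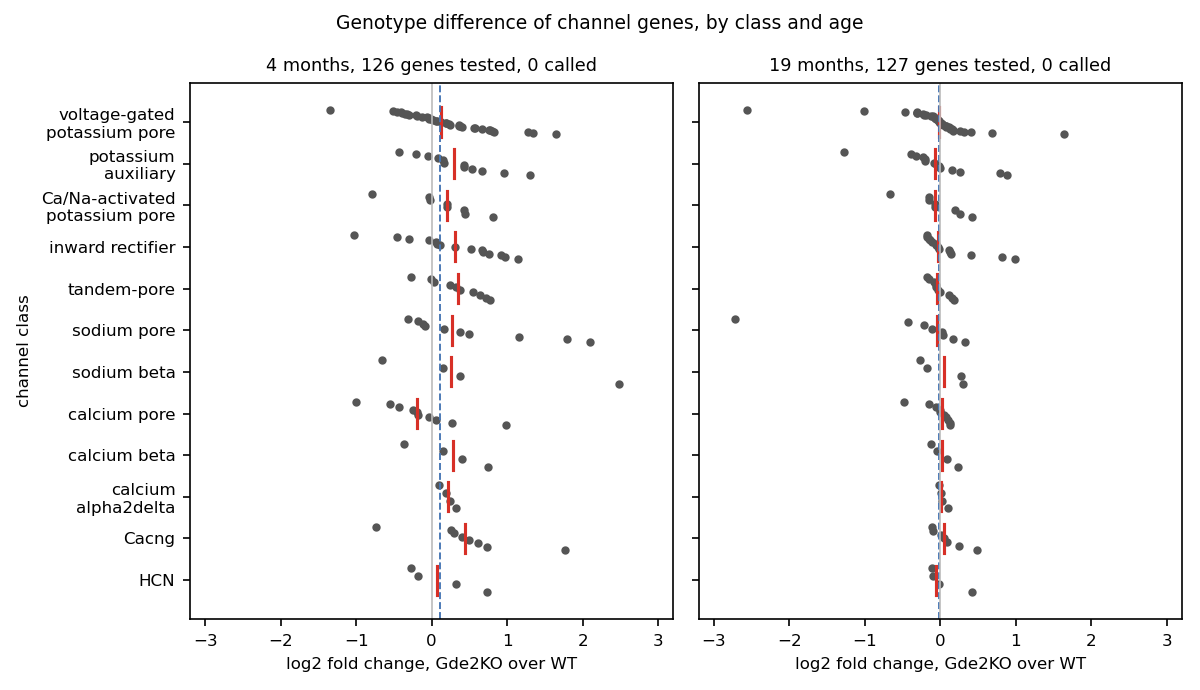
Log2 fold change of Gde2KO over WT for each tested channel gene (points), by class, at 4 months (126 genes) and 19 months (127 genes), with red bars at the class median and a dashed line at the median of all genes (0.11 and −0.021). No channel gene was called at either age, and the median over all tested channel genes was 0.20 at 4 months (−0.029 without WT replicates 1 and 2) and −0.018 at 19 months.

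The second comparison set 19 against 4 months within each genotype. In WT, 28 of 125 channel genes were called (13.7% of all genes), 18 higher at 19 months (6.29%) and 10 lower (7.4%). By class the calls were 6 higher and 3 lower voltage-gated potassium pores, 2 and 2 potassium auxiliary subunits, 2 and 1 activated potassium pores, 2 and 0 inward rectifiers, 3 and 0 tandem-pore channels, 1 and 1 sodium pores, 0 and 1 sodium beta subunits, 1 and 1 calcium pores and 1 and 1 Cacng genes. No calcium beta, alpha2delta or HCN gene was called.

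Much of the WT list moved with the libraries that stood apart. Of the 18 genes higher at 19 months, 12 had WT replicates 1 and 2 below the other 4-month libraries, and of the 10 lower, 6 had them above. Among all channel genes tested at 4 months, 47.6% had the pair below and 18.3% above. The calls were made from these same libraries, so the counts are no separate test. Leaving out WT replicates 1 and 2 keeps 1 WT library of 4 months, so calls can also be lost through fewer replicates. Without both, 8 of 128 channel genes were called (2.77% of all genes), 1 higher (1.34%) and 7 lower, and 4 of these were among the 28. In the same WT comparison 9 of 14 hippocampus markers were lower (list median −2.03) and 7 of 8 upper-layer neuron markers higher (list median 1.40) at 19 months. Without both libraries 0 of 14 hippocampus and 0 of 8 upper-layer markers were called, and all 12 striatum markers were lower (list median −3.10).

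Some markers of oligodendrocytes, the myelinating cells, were called lower at 19 months, 4 of 10 in WT (list median −0.61) and 5 of 10 in Gde2KO (list median −0.67), and 5 of 10 in WT without WT replicates 1 and 2. Their summed level was 119682 to 153718 normalized counts in WT and 149220 to 167229 in Gde2KO at 4 months, and 85660 to 113616 and 100501 to 130370 at 19 months, and no marker of the list was at 0 in any library. Of 8 markers of oligodendrocyte precursors 2 were lower in each genotype. The part of these markers in the age differences of the channels was not tested.

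Genes called in WT that moved with WT replicates 1 and 2 included Kcns1, at 1295, 1091 and 1261 normalized counts in 19-month WT against the 146, 210 and 766 of 4 months (log2 fold change 2.08, SE 0.44, limma adjusted p = 0.00887), and Kcnt1, at 8195, 8001 and 6731 against 2055, 2132 and 5746 (1.38, SE 0.31, limma adjusted p = 0.012). Scn3b was lower (−1.28, SE 0.27, limma adjusted p = 0.00988). Without WT replicates 1 and 2 the values were 0.66, 0.41 and −0.41, with limma adjusted p of 0.13, 0.389 and 0.301. In Gde2KO the same differences were 0.58, 0.41 and −0.32, and none was called.

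The tandem-pore channels, which carry background potassium current, gave 3 WT calls, each higher at 19 months. Kcnk4, a mechanosensitive member, read 238, 353 and 577 normalized counts at 4 months and 874, 976 and 924 at 19 months in WT (1.34, SE 0.25, limma adjusted p = 0.00544). In Gde2KO it read 536, 475 and 712, then 795, 884 and 813 (0.55, limma adjusted p = 0.131). Kcnk3, an acid-sensitive member, read 389, 464 and 934, then 1319, 1243 and 1215 in WT (1.19), and 1013, 789 and 933, then 1213, 1208 and 1222 in Gde2KO (0.42). The ages did not overlap in either genotype for these genes, and the 4-month WT libraries that stood apart were the lowest of the 12.

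Kcnk9, a further acid-sensitive channel, read 2288, 3146 and 3521, then 4723, 5338 and 5552 in WT (0.82, SE 0.15, limma adjusted p = 0.00461), and 3117, 3751 and 3619, then 4463, 5432 and 5124 in Gde2KO (0.52, limma adjusted p = 0.0306). Without WT replicates 1 and 2 the WT differences were 0.68, 0.43 and 0.56 for Kcnk4, Kcnk3 and Kcnk9, and none was called.

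The remaining WT calls among the potassium channels included Kcnh4 (2.42) and Kcnh3 (0.79) of the ether-a-go-go family, Kcnj9 (0.87) and Kcnab3 (1.97), all higher at 19 months. These values were 0.43, 0.15, 0.43 and 0.81 without WT replicates 1 and 2, and none was called. Kcng1, a silent subunit, was lower in WT (−1.18, SE 0.21, limma adjusted p = 0.00427), with 1581, 1708 and 1019 and then 596, 657 and 609, and it read 1461, 853 and 1061, then 630, 678 and 761 in Gde2KO (−0.67, limma adjusted p = 0.0394). Its ages did not overlap in either genotype, and without WT replicates 1 and 2 the WT difference was −0.72 (limma adjusted p = 0.204).

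Among the sodium and calcium channels, Scn3a, a sodium pore more prominent in the developing than in the adult brain, was lower in WT at 19 months, with 1903, 1889 and 1630 normalized counts and then 802, 1010 and 1214 (−0.86, SE 0.16, limma adjusted p = 0.00467). In Gde2KO it read 1568, 1797 and 1416, then 1358, 1069 and 1324 (−0.35, limma adjusted p = 0.12). Cacna1h was lower in WT (−0.93) and, of the AMPA receptor auxiliary subunits, Cacng3 was higher (0.76) and Cacng8 lower (−0.77). Without WT replicates 1 and 2 of 4 months none of these 4 was called. The Scn3a difference was then −0.71 (limma adjusted p = 0.170), that of Cacna1h −0.28, that of Cacng3 0.17 and that of Cacng8 0.11, of the opposite sign.

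The HCN genes gave no call with age. Hcn2 read 3541, 3742 and 5644 in WT and 5803, 5118 and 4922 in Gde2KO at 4 months, and 5488, 5401 and 5159 and 4520, 5260 and 5049 at 19 months (0.34, limma adjusted p = 0.127, and −0.095, limma adjusted p = 0.672). The 4-month WT libraries that stood apart were the lowest of the 12 for Hcn2. Hcn4, the pacemaker pore, read 76.4, 98.0 and 245, then 74.5, 120 and 87.2 in WT, and its ages overlapped. Without those libraries the WT difference of Hcn4 was −1.41, which rests on the 245 of WT replicate 3 alone at 4 months.

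In Gde2KO, 15 of 125 channel genes were called (11.9% of all genes), 6 higher at 19 months (2.55%) and 9 lower (9.32%). The median of all genes in this comparison was −0.21, and TMM scaling brought that median to −0.036. TMM scaling gave 8 higher and 5 lower channel genes, where 1671 of all 18731 genes were called, 757 of them higher. Quantile normalization gave 10 higher and 5 lower, where 1817 of all 18731 genes were called, 893 of them higher. By class, 2 voltage-gated potassium pores were higher and 2 lower, 2 and 1 activated potassium pores, 1 and 0 inward rectifiers, 1 and 0 calcium pores, and 2 potassium auxiliary subunits, 1 tandem-pore channel, 1 sodium pore and 2 Cacng genes were lower. In this comparison 4 of 12 striatum markers were lower (list median −1.97).

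Called in both genotypes in the same direction were 5 channel genes, Kcna4 and Kcnab1 lower and Kcnv2, Cacna1f and Kcnn4 higher at 19 months, or 4% of those tested, where 4.58% of all genes were. For the higher genes the share of all genes was 1.72%, and for the lower 2.86%. They are 17.9% of the WT list and 33.3% of the Gde2KO list. Over all genes 857 were called in both in the same direction, where 2565 were called in WT and 2224 in Gde2KO. The compared libraries of the genotypes are separate animals, but age cannot be told apart from library batch in either genotype. The ages did not overlap in the same direction in both genotypes in 26 channel genes (23.3% of all genes), 15 higher at 19 months (6.73%) and 11 lower (16.6%).

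Kcna4 encodes a Shaker-type potassium pore that inactivates fast and carries A-type current in axons. It stood at 1028, 1150 and 1095 normalized counts in WT and 1148, 1314 and 882 in Gde2KO at 4 months, and at 415, 424 and 470 in WT and 663, 441 and 548 in Gde2KO at 19 months. Every 4-month library lay above every 19-month library. The log2 fold change was −1.32 in WT (SE 0.17, limma adjusted p = 0.000568) and −1.02 in Gde2KO (limma adjusted p = 0.00394), and it was called under all 24 alternatives in each genotype.

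Kcnab1 encodes a beta subunit that binds Shaker-type pores and gives them fast inactivation. It stood at 4291, 4544 and 4761 normalized counts in WT and 4760, 6272 and 4282 in Gde2KO at 4 months, and at 2148, 2049 and 2197 and 3185, 2022 and 2579 at 19 months. The ages did not overlap, with a log2 fold change of −1.09 in WT (SE 0.16, limma adjusted p = 0.00165) and −0.98 in Gde2KO (limma adjusted p = 0.00413), called under all 24 alternatives in each. In both genes the 4-month WT libraries that stood apart lay close to WT replicate 3. The striatum sums of these WT libraries were 8337, 6444 and 69460 normalized counts. Among the 19-month Gde2KO libraries both genes and the striatum markers were lowest in library B. In 4-month Gde2KO both genes and the striatum sum (57210, 97080 and 36470) were highest in replicate 2 and lowest in replicate 3. The part of the striatum markers in these differences was not tested.

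Kcnv2, a silent subunit best known from photoreceptors, read 0, 3.6 and 1.8 normalized counts in WT and 2.5, 2.1 and 0 in Gde2KO at 4 months, and 51.2, 50 and 28.8 and 33.2, 33.0 and 25 at 19 months. Its log2 fold changes, 4.66 in WT (SE 0.85, limma adjusted p = 0.00482) and 4.29 in Gde2KO (limma adjusted p = 0.0089), depend on the pseudocount because the 4-month values are a few reads. Kcnv2 passed the filter of 5 normalized counts only through its 19-month libraries, so being tested already required higher values there. It could be tested in 16 of 24 alternatives and was called in all of those, which adds no separate support. Its mean level was 0.205 TPM.

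Cacna1f, an L-type calcium pore also best known from retina, read 31, 33.8 and 40.6 normalized counts in WT and 21.3, 52.2 and 42.8 in Gde2KO at 4 months, and 158, 95.7 and 87.2 and 74.6, 83.3 and 78.0 at 19 months (1.64 in WT, limma adjusted p = 0.00778, and 1.10 in Gde2KO, limma adjusted p = 0.0367). Without WT replicates 1 and 2 of 4 months the WT difference was 1.42, with a limma adjusted p of 0.215. Kcnn4, the intermediate-conductance calcium-activated potassium pore known from blood cells and microglia, read 16.6, 14.5 and 9.0 and 20.1, 12.5 and 22.1 at 4 months, and 14.0, 63.7 and 61.3 and 41.5, 67.7 and 34.4 at 19 months. Its WT ages overlapped, its limma adjusted p was 0.0727 in WT and 0.0951 in Gde2KO, and 14 of 23 alternatives in Gde2KO did not call it. Of 5 blood markers, 4 were called higher at 19 months in WT and 0 in Gde2KO. Their summed level at 19 months was 32710, 13880 and 6105 normalized counts in WT and 9230, 14780 and 9680 in Gde2KO. In WT, library A had the highest sum and the lowest Kcnn4, and in Gde2KO library B was highest in both. The part of blood in the Kcnn4 values was not tested.

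**Figure D4:**
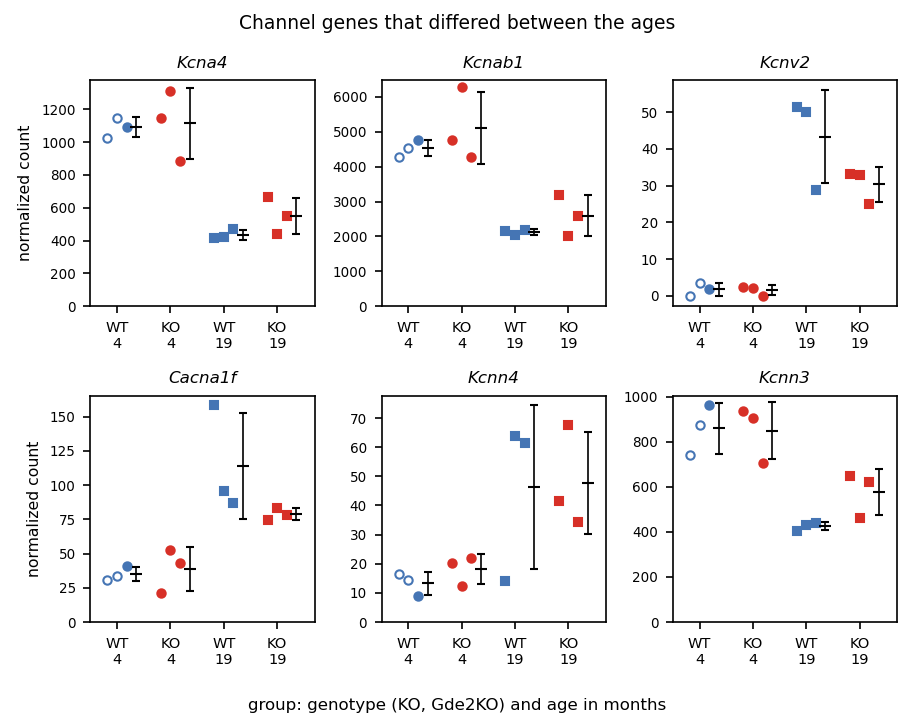
Normalized counts in each library for the 5 channel genes called with age in both genotypes and for Kcnn3, by genotype and age in months, with bars for the group mean and SD (n = 3) and open circles for WT replicates 1 and 2 of 4 months. Every 4-month library lies above every 19-month library for Kcna4 and Kcnab1, and below for Kcnv2 and Cacna1f.

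The promoter windows of these genes are shown because the genes were called together in both genotypes. RefSeq promoter sequences on GRCm38.p6, 250 bases before to 50 after a start site, were matched by symbol for 99 of the 136 channel genes and for 4 of the 5, Kcnv2 having no entry. Those of Kcna4, Cacna1f and Kcnn4 are printed, whose start sites have deposited transcripts beginning within 100 bases that hold 82.1%, 48.1% and 76.9% of the gene's TPM. The windows of Kcnab1 hold 1.89% at most and are not printed. Capitals mark the GC box (GGGCGG) and the CCAAT box (CCAAT) on either strand.
Kcna4, chr2:107290339-107290638, plus strand: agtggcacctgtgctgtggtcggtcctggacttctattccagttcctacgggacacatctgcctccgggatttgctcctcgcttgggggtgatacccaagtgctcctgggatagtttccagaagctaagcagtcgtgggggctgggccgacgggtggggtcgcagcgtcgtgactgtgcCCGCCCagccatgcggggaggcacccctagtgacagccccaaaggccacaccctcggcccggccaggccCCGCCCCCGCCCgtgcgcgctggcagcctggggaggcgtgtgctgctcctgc
Cacna1f, chrX:7606853-7607152, plus strand: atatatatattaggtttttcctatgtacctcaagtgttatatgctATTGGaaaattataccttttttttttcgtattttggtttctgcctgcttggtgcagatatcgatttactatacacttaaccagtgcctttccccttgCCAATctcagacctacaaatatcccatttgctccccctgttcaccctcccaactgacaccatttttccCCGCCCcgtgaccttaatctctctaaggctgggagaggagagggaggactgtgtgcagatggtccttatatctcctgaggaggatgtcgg
Kcnn4, chr7:24370013-24370312, plus strand: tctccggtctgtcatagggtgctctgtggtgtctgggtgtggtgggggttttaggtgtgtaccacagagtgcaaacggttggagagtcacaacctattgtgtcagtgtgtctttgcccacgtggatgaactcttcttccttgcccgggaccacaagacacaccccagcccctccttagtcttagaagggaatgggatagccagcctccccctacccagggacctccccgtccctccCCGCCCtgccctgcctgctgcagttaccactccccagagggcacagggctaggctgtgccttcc
The letters of the GC box occurred 3 times in the Kcna4 window, a pair of them directly adjacent, and once each in those of Cacna1f and Kcnn4, and CCAAT occurred at 2 places in that of Cacna1f. The GC box was found in 35.7% of all 32851 promoter windows and in 45.9% of the 135 windows of channel genes, CCAAT in 37.4% and 28.1%. The TATA box letters TATAAA, in 13.6% of all windows and 5.19% of channel windows, and the cAMP response element TGACGTCA, in 1.79% and 0 of 135, were searched too and were not found in the 3 printed windows. A match is a run of letters and not evidence of binding.

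With the adjusted p alone, without the size threshold, 14 channel genes passed in both genotypes in the same direction (13% of all genes), 6 higher at 19 months (4.58%) and 8 lower (8.4%). Besides the 5 above, those lower were Kcnn3, Kcng1, Kcns2, Kcnd2, Cacna2d3 and Cacng5, and those higher included Kcnc1, a pore of fast-spiking cells, and Kcnk9. Kcnd2 is the main A-type pore of dendrites.

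Kcnd2 read 4603, 4907 and 4271 normalized counts in WT and 4615, 4682 and 4202 in Gde2KO at 4 months, and 3084, 3014 and 3102 and 3790, 3034 and 3150 at 19 months (−0.58, limma adjusted p = 0.00337, and −0.44, limma adjusted p = 0.0133). Cacna2d3, an alpha2delta subunit of the calcium channels, read 4768, 4078 and 4309 and 4491, 5295 and 4336 at 4 months, and 3059, 3170 and 2820 and 2993, 2951 and 3117 at 19 months (−0.54, limma adjusted p = 0.0047, and −0.64, limma adjusted p = 0.00305). The ages did not overlap for either gene in either genotype.

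Kcns2, a silent subunit, read 1366, 1225 and 1254 and 1316, 1487 and 1599 at 4 months, and 876, 805 and 882 and 871, 858 and 823 at 19 months. It was called in Gde2KO (−0.78, SE 0.098, limma adjusted p = 0.000817) and lay below the size threshold in WT (−0.58, limma adjusted p = 0.00307). Kcnn3 read 742, 873 and 964 and 936, 907 and 704 at 4 months, and 405, 432 and 441 and 647, 460 and 622 at 19 months, and it was called in WT (−1.0, SE 0.16, limma adjusted p = 0.00234) under all 24 alternatives, with −0.56 in Gde2KO (limma adjusted p = 0.0288). The difference between the genotypes was not called for either gene.

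Kcnc1 read 5604, 6419 and 7921 and 8107, 6986 and 6432 at 4 months, and 9124, 9926 and 10082 and 9213, 9123 and 9290 at 19 months (0.56, limma adjusted p = 0.0113, and 0.37, limma adjusted p = 0.053). Relative to the median of all genes, the Gde2KO difference was 0.58. The ages did not overlap in either genotype.

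Besides Kcns2, several genes were called in Gde2KO alone. Kcnn2 (0.75, limma adjusted p = 0.0195) and Kcnj6 (0.73, limma adjusted p = 0.0315) were higher at 19 months, and in WT their differences were −0.24 and −0.45, or 0.25 and 0.13 without WT replicates 1 and 2, and were not called. Cacng4 and Cacng5, members of the AMPA receptor auxiliary family, were lower with −0.79 and −0.73, Kcne4 and Kcnk5 with −1.23 and −1.24, and Kcnu1 with −0.83. Without the shallow Gde2KO library A of 19 months, these genes other than Kcnn2 were not called. The differences were then 0.67 for Kcnj6, −0.86 for Cacng4, −0.65 for Cacng5, −1.15 for Kcne4, −1.03 for Kcnk5 and −0.65 for Kcnu1. TMM scaling and quantile normalization did not call Cacng4, Cacng5, Kcns2 or Kcnu1, and Cacng4 was not called in 14 of 24 alternatives and Kcnu1 in 15 of 24.

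**Figure D5:**
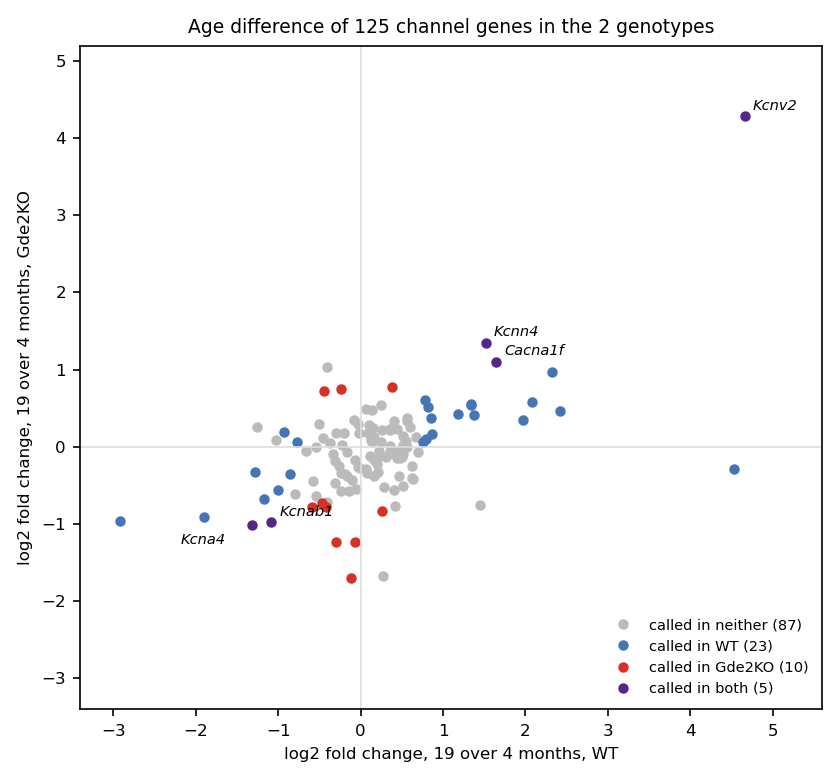
Log2 fold change of 19 over 4 months in WT (horizontal axis) against Gde2KO (vertical axis) for 125 channel genes, 1 point per gene, colored by where the gene was called. The 5 genes called in both genotypes are named, 23 were called in WT alone and 10 in Gde2KO alone.

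The genes that bind, place or regulate these channels were taken from a list of 57, of which 53 were tested. None was called between the genotypes at either age, where 0.126% of all genes were at 4 months and 0.0969% at 19 months. With age, 4 were called higher (6.29% of all genes) and 7 lower (7.4%) in WT. In Gde2KO 0 were called higher (2.55%) and 2 lower (9.32%). Rem2, a small GTPase that inhibits calcium channels, was lower in both (−2.60, limma adjusted p = 0.000192, and −1.37, limma adjusted p = 0.00906), and Calm2, a calmodulin gene, was lower in Gde2KO (−0.85, limma adjusted p = 0.0109). In WT, Stac2, a calcium channel adaptor, was higher (1.21, limma adjusted p = 0.000652), and Cnih2 (−1.30), an AMPA receptor partner, and Fgf11 and Fgf13 (−1.17 and −0.82), homologous factors of the sodium pores, were lower. At 4 months Cnih2 read 13493, 10584 and 5315 normalized counts in WT and 6316, 4707 and 6704 in Gde2KO, so the WT libraries that stood apart were the highest. Without those libraries the WT differences were −0.52 for Cnih2, −0.54 for Fgf11 and −0.28 for Fgf13, and none of these was called, while Stac2 (0.86) and Rem2 (−2.32) were. In Gde2KO the differences were −0.47, −0.27 and −0.40 for Cnih2, Fgf11 and Fgf13, and 0.43 for Stac2, none of them called.

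Transcript usage within channel genes was tested because splicing was the study's question at 19 months. By limma diffSplice, none of 89 channel genes had altered usage between the genotypes at 4 months (0.997% of all genes tested) and none of 90 at 19 months (0.171%). At an unadjusted p under 0.05 there were 14 (12.6% of all genes) and 10 (5.1%). Leaving out Gde2KO replicate 2 of 4 months gave 11 of 90 channel genes with altered usage, where 5.38% of all genes had it.

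The lowest adjusted p at 4 months was that of Scn8a, 0.110 by limma diffSplice, for transcript ENSMUST00000108908.5. Its share of the gene's TPM was 12%, 13.7% and 10.8% in WT and 0%, 7.62% and 0% in Gde2KO at 4 months, and 0%, 0% and 5.79% and 17.3%, 11.6% and 4.88% at 19 months. Kcnh1 transcript ENSMUST00000151152.2 took 0.659%, 0% and 2.42% in WT and 13.1%, 1.77% and 30.4% in Gde2KO at 4 months, and 33.3%, 12% and 10.6% and 1.29%, 3.34% and 0.0622% at 19 months. Scn2a transcript ENSMUST00000100067.6 took 0.125%, 0.173% and 11.3% and 33.9%, 1.58% and 47.2% at 4 months, and 49.8%, 36.1% and 25.8% and 3.13%, 2.55% and 15.7% at 19 months.

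In these 3 genes the genotype with the higher mean share was the other one at 19 months. Gde2KO replicate 2 of 4 months lay with WT in Kcnh1 and Scn2a. The adjusted p for Kcnh1 was 0.336 at 4 and 0.398 at 19 months, and that for Scn2a 0.270 and 0.965 by limma diffSplice, and the shares are estimates by pseudoalignment among transcripts that overlap.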

How the data were processed

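RNA sequencing of mouse cortex was used, with 3 libraries of each genotype at each age. The authors pseudoaligned reads with Kallisto and normalized them in Sleuth on GRCm38, and the submitters' processing notes also name bcl2fastq 2.17, Trimmomatic 0.36 and STAR 2.5.2b. The authors deposited transcript signal values of 2 kinds, estimated counts and TPM, each divided by a size factor per library. Reads per library were estimated from the value of 1 read. The 19-month columns carry no replicate number and are called A, B and C. Gene sums were tested where at least 47% of the compared libraries held 5 normalized counts or more, which left 126 channel genes at 4 months, 127 at 19 months and 125 over both.

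limma 3.58.1 (R 4.3.3) with an intensity trend was fitted on the log2 scale after adding 0.5 to each value, at each age alone for genotype and over all 12 libraries for age, interaction and average. Adjusted p-values are Benjamini-Hochberg over all genes, and calls needed an adjusted p under 0.1 and an absolute log2 fold change above 0.721 (for the interaction the adjusted p alone). Usage was tested with diffSplice on transcripts with a mean of 5 or more, and calls needed an adjusted p under 0.1 with a TPM share moved by more than 10 points. The steps were tested on simulated data, and for usage 145 of 200 genes with an 8-fold changed transcript were recovered at 19 months and 200 of 200 at 4 months. Unchanged genes were called 8 times at 19 months and 38 times at 4 months. The threshold of 10 points of share was left out of these usage simulations.

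Named genes are the called channel genes (at most 25 per comparison), the highest gene of each class by TPM, the gene of smallest p per class and genotype comparison, genes whose genotypes do not overlap at both ages, a fixed list of main cortical channels, and Gdpd5. Other genes named were chosen after their values were seen, and some channel genes under the rule are not reported here. The members, classes and lists were chosen with earlier results of these data known. Positions are from GENCODE vM21. The alternatives changed the added value, the filter, the scaling (TMM, quantile), the variance model or the threshold, blocked on replicate number, or left out libraries. Figures were drawn with matplotlib 3.10.9.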

Additional observations from a re-analysis of the deposited data

Results flagged for a closer look

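Kcna10, a Shaker-type potassium pore of very low level, separated the genotypes in opposite directions at the 2 ages. It read 0, 0.6 and 1.8 normalized counts in WT and 2.5, 4.8 and 4.8 in Gde2KO at 4 months, and 9.3, 6.8 and 9.4 in WT and 0, 1.4 and 3.1 in Gde2KO at 19 months. The log2 fold change at 19 months was −2.56 (limma adjusted p = 0.711). At that age Kcna10 passed the filter only through the WT libraries, so a lower Gde2KO value was built into the test. The gene had too few counts to be tested at 4 months, so the difference between the ages was not tested, and these values are a few reads per library.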

How the results depend on the processing

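Counts of called channel genes moved most with the 4-month WT libraries and with sample weights. Sample weights gave 38 calls for genotype at 4 months (12.7% of all genes). They gave 74 for the interaction (34.5%) and 10 for the average over ages (4.14%). Without weights limma gave 0 each, and the cause was not tested. For age in WT (28 calls) the adjusted p alone gave 47, and leaving out both WT replicates 1 and 2 of 4 months, an alternative added after the data were seen, gave 8. For age in Gde2KO (15 calls) the adjusted p alone gave 31, gene sums of TPM 7 and leaving out both shallow libraries 9. With the adjusted p alone, 5279 of all 18731 genes passed in WT and 6053 in Gde2KO. Gene sums of TPM called 1803 of all 18731 genes in Gde2KO, and leaving out both shallow libraries 2409 of 18817. Altered usage at 4 months (0 calls) became 1 with a mean of 20 normalized counts, 3 with Simes adjustment and 1 with a pseudocount of 5. Over all genes tested these settings gave 86 of 9783, 262 of 12235 and 160 of 12235. Leaving out 1 library at a time gave 0 to 36 calls for genotype at 4 months, 0 to 0 at 19 months, 0 to 49 for the interaction, 0 to 10 for the average, 18 to 47 for age in WT, 7 to 17 for age in Gde2KO, and 0 to 11 and 0 to 1 for usage at 4 and 19 months. For age in WT, leaving out WT replicate 1, 2 or 3 of 4 months gave 18, 19 and 47. Over all genes tested these fits called 1569 of 18535, 1525 of 18522 and 3096 of 18522. For age in Gde2KO, leaving out Gde2KO replicate 1 or 3 of 4 months or library A of 19 months gave 8, 7 and 7. These fits called 1999 of 18528, 1096 of 18551 and 2158 of 18562 genes. Usage at 4 months without Gde2KO replicate 2 gave 11 (5.38% of all genes), and the average over ages without WT replicate 3 gave 10 (2.6%). The 36 for genotype at 4 months, the 49 and the 17 also came without WT replicate 3 of 4 months. There 8.03% of all genes were called for genotype, 2029 of 18522 for the interaction and 2255 of 18522 for age in Gde2KO. Without WT replicates 1 and 2, 53 of 126 channel genes changed sign at 4 months, none of them called with all libraries, and 35 of 125 for age in WT, of which Cacng8 had been called. At 4 months these included Kcns1 (−0.14), Kcnk3 (−0.043) and Kcnh4 (−0.35), and also Hcn4 (−0.26), Scn4b (−0.32) and Scn11a (−0.0013). In the same setting signs changed over both ages for Cacnb4 (−0.026), Scn4b (−0.023) and Scn1a (−0.016), and with gene sums of TPM for Cacna2d4 (−0.074) and Cacnb4 (0.018) at 19 months and Cacna2d1 (0.022) in the interaction, none of which was called.

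A replicate block at 4 months left 0 channel genes called for genotype (21 of all 19035) and 1 (Kcnh1) for usage (97 of all 12235). At an unadjusted limma p under 0.05 for genotype it gave 38 channel genes and 2317 of all genes, against 22 and 2025 without it. Same-numbered libraries had deviations correlated at 0.0596, 0.00709 and −0.0477, and differently numbered ones at −0.144 to 0.111. With 3 libraries per genotype, these values cannot tell whether the numbers mark a pairing. No paired analysis was possible at 19 months because the columns carry no number. At 19 months 1 read was worth up to 8.29 normalized counts, which limits genes of low level such as Kcnv2, Kcnn4 and Kcna10.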
